A study of Oryza sativa with 40 samples.

Results

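Gene expression in rice flag leaves was compared between noon and the end of the night. The comparison used 8 of the 40 arrays of the series, which covers flag leaves and seedling leaves at 10 sampling times and 2 biological replicates. The 4 noon arrays were the flag leaf samples taken at 12 and 36 h, counted in hours from midnight of day 1, and the 4 end-of-night arrays were those taken at 8 and 32 h, when the lights came on. Flag leaves, the uppermost leaves of the plant, came from 3-month-old plants of Oryza sativa subsp. japonica var. Nipponbare, which had grown in a field before a greenhouse cycle of 12 h of light at 32 °C and 12 h of dark at 30 °C. No treatment or mutation separated the samples, so that both groups were untreated wild-type leaves that differed in the time of harvest. The sample labels write 12:00am for the 12 and 36 h samples, and these were read as noon because the study's sampling scheme places them 4 h after lights on. The labels do not say whether the biological replicates were separate plants, nor how many leaves went into a sample, so that p-values measure only the spread between these samples. Each array gives 1 signal, a scaled hybridization intensity, for each of 57194 rice probe sets.

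In plants a circadian clock of repressing transcription factors is set by dawn and times gene expression over the day. The morning factor LHY and the pseudo-response regulators (PRR proteins), which are expressed one after another through the day, repress each other's genes, and GIGANTEA (GI) and the evening factor PCL1 act later in the cycle. After lights on, stomata open and leaves fix carbon and store part of it as transitory starch, which is broken down again in the following night. The flag leaf is known as a main source of carbohydrate for the rice grain.

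**Figure D1:**
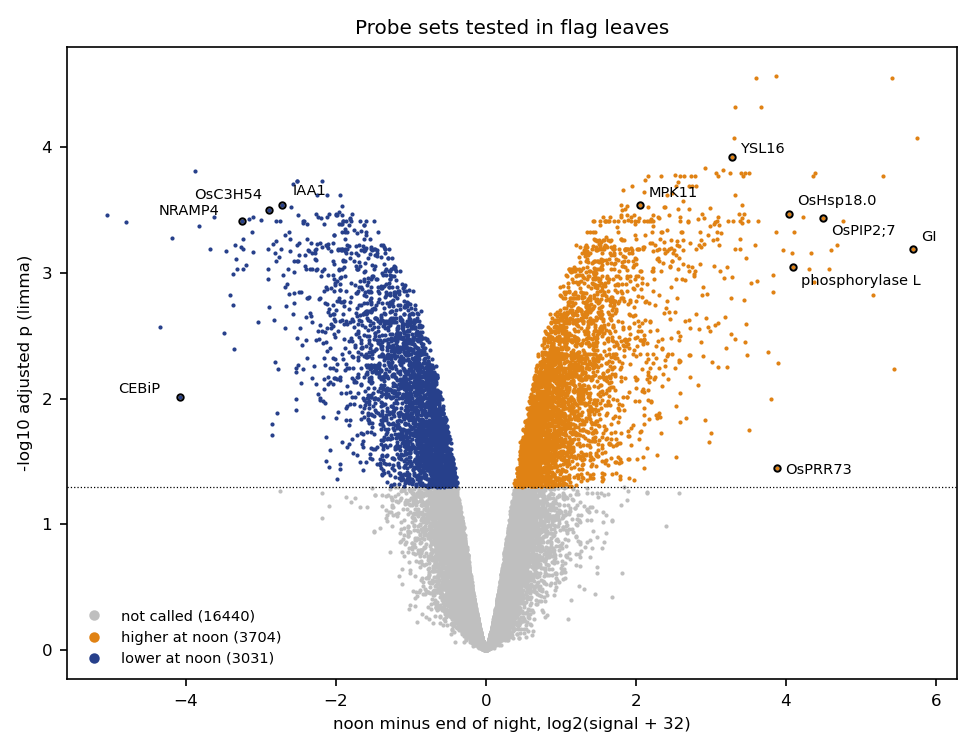
Each point is 1 of the 23175 probe sets tested in flag leaves. The x axis gives the noon minus end-of-night difference on the log2(signal + 32) scale and the y axis -log10 of limma's adjusted p, with the dotted line at the threshold; 3704 probe sets were higher at noon (orange), 3031 lower (blue) and 16440 were not called (grey).

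Of the 57194 rice probe sets, 23175 had a mean signal of at least 100 over the 8 arrays and were tested. At noon 3704 of them (16%) were higher and 3031 (13.1%) were lower, 29.1% in all, at an adjusted p under 0.05 (limma, day of sampling as a block), and 1764 (7.61%) and 1331 (5.74%) of them differed by at least 1 on the log2 scale. The noon and end-of-night arrays did not overlap for 7067 probe sets (30.5%), of which 3846 were above and 3221 below at noon. The median difference over all probe sets tested was 0.02 on the log2 scale. Leaving out replicate 2 at 32 h or at 36 h reduced the number of lower probe sets to 1977 or 1978. Named genes could be assigned to 3186 probe sets of 2451 genes. Among the 1874 of these genes that were tested, with 1 probe set kept per gene, 355 were higher and 309 lower at noon. The counts in each gene list below are to be read beside the 16% and 13.1% called over all probe sets.

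The arrays were alike in overall brightness, which their scaling to a common target mean largely sets in advance. The mean signal ranged from 814 to 877 on the end-of-night arrays and from 823 to 837 on the noon arrays, and 22879 to 23623 probe sets reached a signal of 100. The actin control gave 4.26 to 10.1 times as much signal from its 3′ as from its 5′ probe set at the end of the night and 4.72 to 6.85 times at noon. The 3′ signal was thus well above the 5′ signal on every array, and the ratio of 10.1 was that of replicate 2 at 8 h. The GAPDH control, which had been planned for this check, was too dim, with 5′ signals of 2.5 to 27.6. Replicate arrays of a time point correlated at 0.953 to 0.972 (Pearson's r over log2 signals, across genes, which are not independent replicates). CAB2R, a chlorophyll a/b binding protein gene and marker of green leaves, gave signals of 2306 to 49289.5. Of 14 genes of the panicle and flower, 10 of seed storage proteins and 4 of roots, only 2, 4 and 2 were bright enough to be tested, and limma called 1 panicle gene (OsMADS1) and 1 root gene (OsNramp5) lower at noon. The summed signal of each list overlapped between the groups: 1995 to 2754 against 1476 to 2519.8 for the panicle list, 5585 to 6265 against 5116 to 7034 for the seed list and 838 to 1471 against 892 to 1218 for the root list, with the end-of-night arrays first. Because whole leaves were used, fewer cells of a type and less RNA per cell cannot be told apart. Of 10 tested genes often used as constant references (actins, tubulins, ubiquitins, elongation factor 1-alpha), 5 were higher at noon and the median was 0.36, so that small rises of other genes are to be read beside this value. The alpha-tubulin gene TUBA1, for instance, went from 1665 ± 469.7 to 3569 ± 294 (mean signal ± SD, n = 4 arrays each), a difference of 1.12 ± 0.19 (adjusted p = 0.00454).

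**Figure D2:**
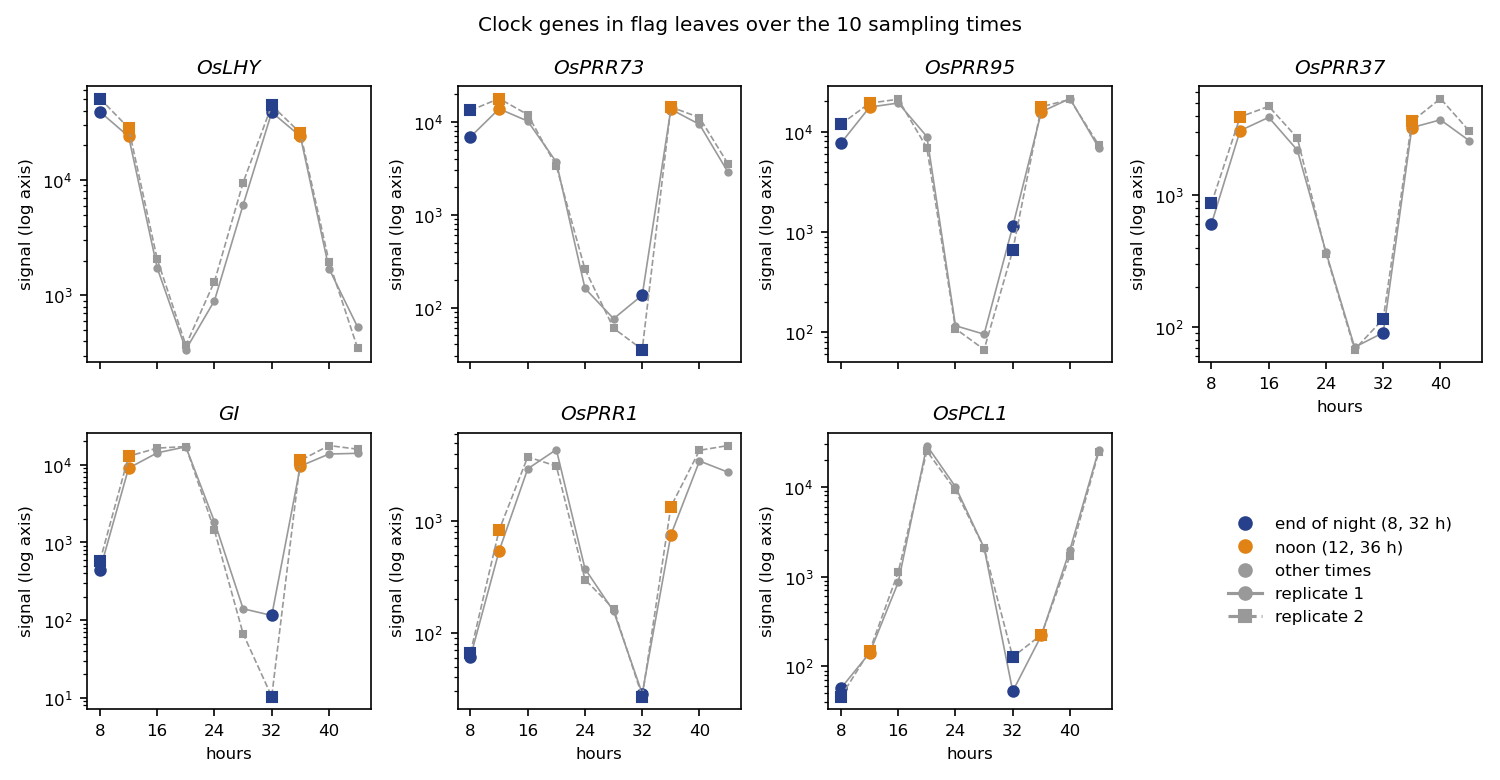
Signal of 7 clock genes in flag leaves (y axis, logarithmic) against the sampling hour (x axis), with a point for each array. Blue points are the end-of-night arrays, orange points the noon arrays, and grey points the other hours; GI rose from a range of 10.4 to 578 at the end of the night to 9054 to 12884 at noon.

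All 7 measured clock genes changed over the morning: 6 rose and LHY fell. In what follows, signals are given for replicates 1 and 2 of a time point in that order. GI, which showed the largest rise among named genes whose groups did not overlap, gave 442 and 578 at 8 h, 115 and 10.4 at 32 h, 9054 and 12884 at 12 h and 9608 and 11358 at 36 h. The noon arrays lay far above the end-of-night arrays, with a difference of 5.69 ± 0.59 (adjusted p = 0.000651), on the log2(signal + 32) scale that is used for all differences below (± SE, 4 against 4 arrays, adjusted p by limma). OsPRR1, the rice counterpart of the Arabidopsis clock gene TOC1, gave 61.3 and 66.5 at 8 h, 28.7 and 27 at 32 h, 542 and 831 at 12 h and 753 and 1344 at 36 h. It rose by 3.50 ± 0.30 (adjusted p = 0.000389), with no overlap between the groups, and it was tested only because of its noon signals. OsPRR37 gave 607 and 867 at 8 h, 90.8 and 115 at 32 h, 3073 and 3902 at 12 h and 3241 and 3609 at 36 h, and its rise of 3.44 ± 0.46 (adjusted p = 0.00166) separated the groups as well.

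OsPRR73 and OsPRR95 were already bright on both 8 h arrays and many times dimmer on both 32 h arrays. OsPRR73 gave 6869 and 13238 at 8 h, 136 and 35.3 at 32 h, 13775 and 17759.6 at 12 h and 13631 and 14426 at 36 h. Its mean rise of 3.88 ± 1.15 (adjusted p = 0.0357) therefore had a wide error, and the call was lost without either 32 h or either 36 h array (adjusted p up to 0.102). OsPRR95 gave 7689 and 11858 at 8 h, 1135 and 654 at 32 h, 17552 and 19236 at 12 h and 15742 and 17671 at 36 h, a rise of 2.58 ± 0.61 (adjusted p = 0.0153). PCL1, which reached its highest signal at 20 h, was at its lowest around lights on: the signals were 57.3 and 46.2 at 8 h, 52.9 and 127 at 32 h, 141 and 149 at 12 h and 221 and 226 at 36 h. The dimmest noon array was only slightly above the brightest end-of-night array, and the rise was 1.11 ± 0.20 (adjusted p = 0.00542). LHY moved the other way, with 39115 and 50949 at 8 h, 38773 and 44463 at 32 h, 23893 and 28311 at 12 h and 23976 and 25623 at 36 h. All noon arrays were below all end-of-night arrays, and LHY fell by 0.76 ± 0.15 (adjusted p = 0.00702). Over the 10 sampling times the plot of the clock genes places the highest mean signal of LHY at 8 h, of OsPRR73 at 12 h, of GI and PCL1 at 20 h, and of OsPRR1, OsPRR37 and OsPRR95 at 40 h.

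Among 7 tested genes of photoperiodic flowering, 1 rose and 1 fell (median -0.14). The one that fell was OsMADS50, the rice homologue of the Arabidopsis flowering promoter SOC1, with 1525 and 2276 at 8 h, 2407 and 3197 at 32 h, 708 and 448 at 12 h and 638 and 559 at 36 h. The noon signals formed a separate, lower group, and OsMADS50 fell by 1.91 ± 0.22 (adjusted p = 0.000928). The florigen gene Hd3a gave 2603 and 1812 at 8 h, 1894 and 919 at 32 h, 1992 and 3404 at 12 h and 3784 and 2314 at 36 h. These groups overlapped, and the difference of 0.70 ± 0.33 (adjusted p = 0.149) did not pass the test. Of 5 tested light receptor genes, the phototropin gene PHOT1A, a receptor of blue light, was the only one called. Its signals were 6275 and 10851 at 8 h, 10378 and 13374 at 32 h, 2227 and 2356 at 12 h and 2008 and 1588 at 36 h, and it fell by 2.27 ± 0.25 (adjusted p = 0.000789) without overlap. The phytochrome gene PHYB, a red light receptor, had means of 2602 ± 291 and 1913 ± 225, and its difference of -0.44 ± 0.15 (adjusted p = 0.0618) was not called.

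None of the 3 tested light-harvesting genes passed limma's adjusted threshold, while 2 of them had an unadjusted p under 0.05, both higher at noon. CAB2R gave 43659 and 49289.5 at 8 h, 4598 and 2306 at 32 h, 49173 and 47116 at 12 h and 42680.5 and 34312 at 36 h. The noon arrays and the 8 h arrays were at about the same level and the 32 h arrays stood far below, and the difference of 1.80 ± 0.64 (adjusted p = 0.0698) was not called. RCABP89, another gene of these proteins, showed the same order of arrays, with 40995 and 44892 at 8 h, 9285 and 11276 at 32 h, 46681 and 41658 at 12 h and 40727 and 33278 at 36 h and a difference of 0.94 ± 0.34 (adjusted p = 0.0744). RCABP69, the third, had a difference of 0.32 ± 0.20 (adjusted p = 0.258). Of 6 tested genes of the photosystems and electron transport 1 fell (medians of these and of 6 Calvin cycle and photorespiration genes, -0.01 and -0.08). In the Calvin cycle and photorespiration list 1 gene rose, the glycolate oxidase gene OsGLO4, from 1017 ± 365 to 2105 ± 112, a difference of 1.09 ± 0.22 (adjusted p = 0.00848). Chlorophyll synthesis had 2 rises and 1 fall among 7 tested genes, too few to set against the 16% and 13.1% of all probe sets. PORB, whose enzyme makes chlorophyllide in a light-dependent step, gave 8246 and 8072 at 8 h, 3573 and 3453 at 32 h, 14693 and 14694 at 12 h and 11208 and 10552 at 36 h. It rose by 1.23 ± 0.18 (adjusted p = 0.00238), and every noon array was above every end-of-night array. HEMB, an enzyme of an early step of the same pathway, went from 7198 ± 1043 to 3938 ± 362 and fell by 0.86 ± 0.15 (adjusted p = 0.00443).

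**Figure D3:**
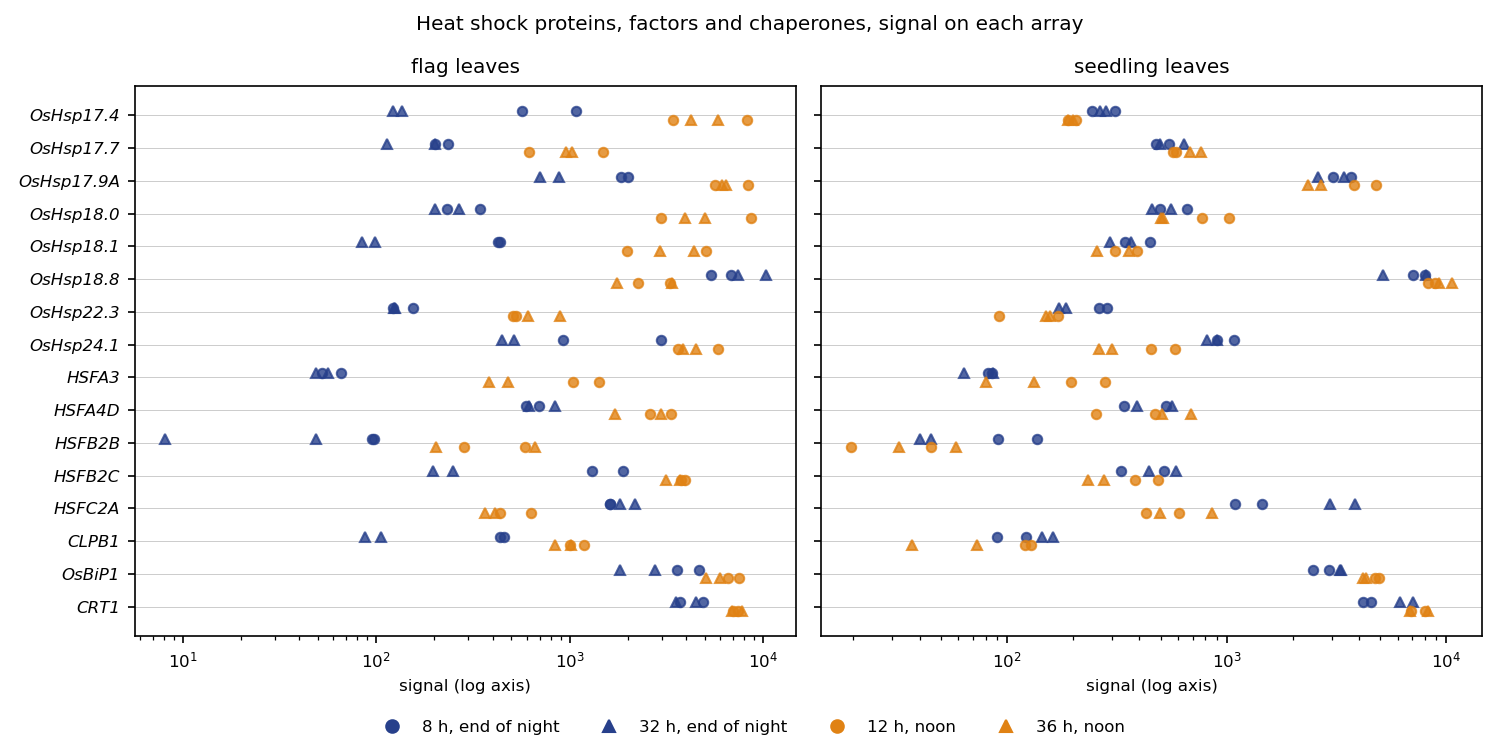
Signal on each array (x axis, logarithmic) of genes for small heat shock proteins, heat shock factors and chaperones, in flag leaves (left) and seedling leaves (right, with an axis of its own). Circles are day 1 and triangles day 2, blue is the end of the night and orange is noon; in flag leaves OsHsp18.0 lay at 202 to 344 at the end of the night and at 2977 to 8652 at noon.

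Small heat shock proteins, chaperones that bind unfolding proteins, had the highest median change of the gene lists after the clock. Of 18 genes on the array 14 were tested, of which 9 rose, each by at least 1 on the log2 scale, and 1 fell. Their median was 2.11, against 0.02 for all probe sets tested. OsHsp18.0 gave 234 and 344 at 8 h, 202 and 269 at 32 h, 2977 and 8652 at 12 h and 3935 and 4999 at 36 h, and rose by 4.04 ± 0.32 (adjusted p = 0.000339). The dimmest noon array was many times above the brightest end-of-night array. OsHsp17.4 gave 568 and 1081 at 8 h, 137 and 122 at 32 h, 3430.5 and 8233 at 12 h and 4219.7 and 5832 at 36 h, and OsHsp18.1 gave 436 and 428 at 8 h, 99.1 and 84.9 at 32 h, 1985 and 5055 at 12 h and 2939 and 4396 at 36 h. Their rises were 3.83 ± 0.49 (adjusted p = 0.00142) and 3.83 ± 0.46 (adjusted p = 0.00105), and in both the 32 h arrays were lower than the 8 h arrays. OsHsp17.9A went from 1352 ± 657 to 6657 ± 1213, a difference of 2.39 ± 0.26 (adjusted p = 0.000702). OsHsp22.3 went from 132 ± 15.2 to 632 ± 176 (1.99 ± 0.19, adjusted p = 0.000506), OsHsp24.1 rose by 2.25 ± 0.44 (adjusted p = 0.00696) and OsHsp17.7 by 2.23 ± 0.29 (adjusted p = 0.0014). The exception was OsHsp18.8, with 6865 and 5372 at 8 h, 7399 and 10322 at 32 h, 3287 and 2266 at 12 h and 3375 and 1749 at 36 h, which fell by 1.49 ± 0.27 (adjusted p = 0.00563).

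Heat shock factors, a family of transcription factors that includes activators of such genes, were divided. Of 16 tested, 7 rose and 3 fell, with a median of 0.32. HSFA3 gave 52.8 and 65.7 at 8 h, 48.9 and 56.8 at 32 h, 1042 and 1426 at 12 h and 383 and 481 at 36 h. It was dim at the end of both nights and rose by 3.11 ± 0.28 (adjusted p = 0.000417), and it was tested only because of its noon signals. HSFB2C gave 1313 and 1888 at 8 h, 196 and 251 at 32 h, 3759 and 3968 at 12 h and 3719 and 3141 at 36 h, a rise of 2.52 ± 0.46 (adjusted p = 0.00569), and HSFA4D rose by 1.88 ± 0.23 (adjusted p = 0.00106) from 687 ± 109 to 2662 ± 689.6. HSFB2B, at low signals of 8.1 to 98.2 before and 204 to 662 at noon, rose by 2.31 ± 0.42 (adjusted p = 0.00576). HSFC2A went from 1814 ± 267 to 461 ± 116 and fell by 1.92 ± 0.20 (adjusted p = 0.000648), and its groups did not overlap. Of 7 tested genes of larger chaperones, 5 rose (median 0.83). None fell by limma, and 1 was lower at an unadjusted p under 0.05. CLPB1, whose protein pulls aggregated proteins apart, gave 436 and 458 at 8 h, 106 and 87.6 at 32 h, 1011 and 1190.4 at 12 h and 1013 and 838 at 36 h and rose by 2.06 ± 0.32 (adjusted p = 0.00292). The genes of the endoplasmic reticulum chaperones BiP1 and calreticulin (CRT1) rose by 1.02 ± 0.20 (adjusted p = 0.00717) and 0.81 ± 0.15 (adjusted p = 0.00659), with means of 3228 ± 1218 and 4161 ± 634 before and 6288 ± 1005 and 7269 ± 421 at noon. The daytime temperature was 32 °C and the night temperature 30 °C. Time of day, light and temperature changed together in these samples and their parts cannot be told apart.

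Aquaporins are the water channels of the plasma membrane (PIP proteins) and of the vacuole membrane (TIP proteins). They rose in 5 and fell in 1 of 13 tested genes (median 0.79), against 16% and 13.1% of all probe sets. OsPIP2;7 came next after GI in size of rise, with 2076 and 1233 at 8 h, 597 and 436 at 32 h, 17722 and 21800.3 at 12 h and 20271 and 25315 at 36 h. The noon signals were close together, the end-of-night signals spread over several fold, and the rise was 4.49 ± 0.37 (adjusted p = 0.000367). OsPIP2;4 rose by 2.12 ± 0.48 (adjusted p = 0.0136), with 2279.5 and 622 at 8 h, 418 and 276 at 32 h, 3042 and 2465 at 12 h and 3232 and 2916 at 36 h. OsTIP1;2 gave 26061 and 27694 at 8 h, 3862 and 2195 at 32 h, 46054 and 44749 at 12 h and 48064 and 40895 at 36 h. It was lower at 32 h than at 8 h by more than the noon arrays differed among themselves, and its rise of 2.33 ± 0.58 (adjusted p = 0.0188) was no longer called without replicate 1 at 32 h or without either 36 h array (adjusted p up to 0.0591). OsTIP4;1, the exception, gave 482 and 467 at 8 h, 1835 and 1258 at 32 h, 303 and 134 at 12 h and 144 and 193 at 36 h and fell by 2.03 ± 0.40 (adjusted p = 0.00764).

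**Figure D4:**
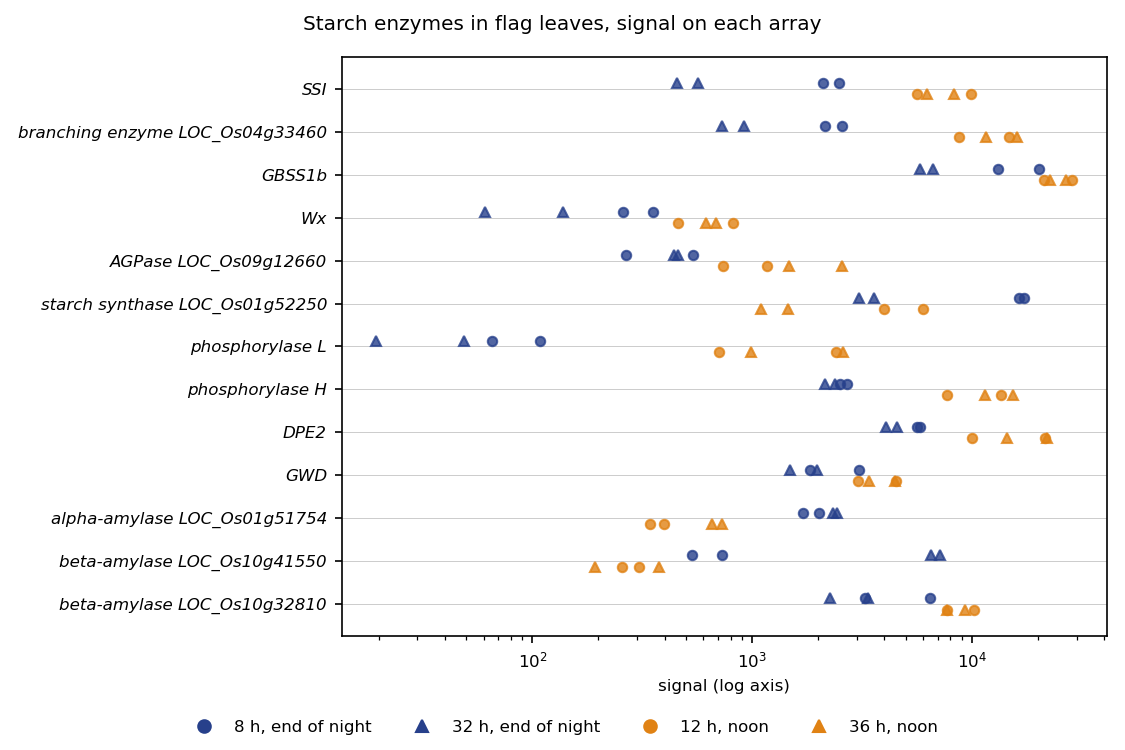
Signal on each flag leaf array (x axis, logarithmic) of 13 genes of starch enzymes. Circles are day 1 and triangles day 2, blue is the end of the night and orange is noon. The upper 6 genes are grouped under starch synthesis and the others under its breakdown, a grouping that was not tested. Phosphorylase L lay at 19.5 to 108 at the end of the night and at 711 to 2602 at noon.

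The study drew up 88 probe sets of starch and sucrose metabolism, and used these samples in choosing them, so that counts in this set are not independent evidence of a direction. Of its 26 probe sets for starch synthesis 24 were tested, and 11 rose and 2 fell (median 0.64). Of its 34 for starch breakdown 32 were tested, and 9 rose and 10 fell (median -0.17). Starch synthase I (SSI), which lengthens the glucan chains, gave 2101 and 2488 at 8 h, 565 and 453 at 32 h, 5614 and 9910.3 at 12 h and 6278 and 8296 at 36 h. It rose by 2.72 ± 0.41 (adjusted p = 0.00274), and the 32 h arrays were several times below the 8 h arrays. The branching enzyme gene at LOC_Os04g33460 gave 2580.3 and 2159 at 8 h, 923 and 731 at 32 h, 8744 and 14772 at 12 h and 11576 and 16136 at 36 h, a rise of 3.13 ± 0.37 (adjusted p = 0.000973) without overlap. The leaf granule-bound starch synthase gene at LOC_Os07g22930 (GBSS1b), which makes amylose, was bright at all times and went from 11486 ± 6695 to 24904 ± 3379 (1.29 ± 0.30, adjusted p = 0.0149), and its paralogue Wx rose from 203 ± 129.9 to 646 ± 149 (1.70 ± 0.36, adjusted p = 0.01). A subunit gene of ADP-glucose pyrophosphorylase, the enzyme that makes the glucosyl donor of starch, at LOC_Os09g12660, rose by 1.63 ± 0.30 (adjusted p = 0.00596) from 426 ± 115 to 1485 ± 774. The starch synthase gene at LOC_Os01g52250 went the other way, with 17317 and 16451 at 8 h, 3586 and 3058 at 32 h, 6013 and 3978 at 12 h and 1457 and 1101 at 36 h. It was lower at noon on each day and fell by 1.57 ± 0.19 (adjusted p = 0.0011) with day as a block. The groups overlapped because day 2 was lower at both clock times, so that this call rests on the day block.

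Genes grouped under starch breakdown moved in both directions. The plastid phosphorylase gene (phosphorylase L, LOC_Os03g55090) gave 65.4 and 108 at 8 h, 48.9 and 19.5 at 32 h, 711 and 2399 at 12 h and 989 and 2602 at 36 h. It was dim at the end of both nights and rose by 4.10 ± 0.47 (adjusted p = 0.000896), and it was tested only because of its noon signals. The second phosphorylase gene (phosphorylase H, LOC_Os01g63270) rose by 2.25 ± 0.23 (adjusted p = 0.000604), from 2436 ± 240 to 12069.5 ± 3307, and DPE2 (LOC_Os07g46790), a glucanotransferase that uses maltose, by 1.70 ± 0.28 (adjusted p = 0.00348), from 5020.4 ± 821 to 17047 ± 5798. The gene of glucan water dikinase (GWD, LOC_Os06g30310), which phosphorylates starch before it is broken down, gave 1842 and 3076 at 8 h, 1486 and 1966 at 32 h, 3022 and 4520.2 at 12 h and 3391 and 4493 at 36 h. It rose by 0.90 ± 0.24 (adjusted p = 0.0254), with overlapping groups, and the call was lost without any one of 6 arrays (replicate 1 at 8 h, replicate 2 at 12 h, and both at 32 and 36 h; adjusted p up to 0.0777).

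Amylase genes included the clearest falls. The beta-amylase gene at LOC_Os10g41550 gave 729 and 535 at 8 h, 7151 and 6544 at 32 h, 305 and 257 at 12 h and 194 and 377 at 36 h. The 32 h signals were far above those at 8 h and all noon signals were lower than both, and it fell by 2.79 ± 0.63 (adjusted p = 0.0131). The alpha-amylase gene at LOC_Os01g51754 gave 1698 and 2011 at 8 h, 2327 and 2446 at 32 h, 398 and 343 at 12 h and 659.8 and 730.4 at 36 h. It fell by 1.98 ± 0.16 (adjusted p = 0.000348), with well separated groups. The beta-amylase gene at LOC_Os10g32810 rose instead, by 1.28 ± 0.27 (adjusted p = 0.0101), from 3845 ± 1832 to 8741 ± 1227.

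Genes of sucrose metabolism moved in both directions, and the SWEET genes that were called fell. In the list of sucrose synthesis, cleavage and transport 3 of 20 tested genes rose and 2 fell (median -0.03), shares near the 16% and 13.1% of all probe sets. The cell wall invertase genes OsCIN1 and OsCIN4, whose enzymes split sucrose outside the cell, moved apart: OsCIN1 rose by 1.28 ± 0.25 (adjusted p = 0.00714) from 2319 ± 956 to 5338 ± 783, and OsCIN4 fell by 1.12 ± 0.17 (adjusted p = 0.00245) from 1706 ± 385 to 754 ± 30.1. The sucrose synthase gene OsSUS4 rose by 1.31 ± 0.25 (adjusted p = 0.00615). Of 8 tested SWEET genes, which encode sugar transporters, 4 fell and none rose by limma or at an unadjusted p under 0.05 (median -0.60). OsSWEET1a gave 3389 and 3249.5 at 8 h, 3314 and 2460.4 at 32 h, 1732 and 1632 at 12 h and 1769 and 1501 at 36 h, and fell by 0.88 ± 0.15 (adjusted p = 0.00423), and OsSWEET1b fell by 0.81 ± 0.19 (adjusted p = 0.0159) from 7642 ± 1026 to 4393 ± 856. In neither gene did the groups overlap. OsSWEET14 gave 694 and 716 at 8 h, 2029 and 1414 at 32 h, 506 and 496 at 12 h and 495 and 219 at 36 h. It fell by 1.36 ± 0.39 (adjusted p = 0.0325), which was not called without either 32 h or either 36 h array (adjusted p up to 0.0887).

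In the list of phenylpropanoid genes, whose products include lignin precursors and light-screening flavonoids, and of ultraviolet repair, 4 of 8 tested genes rose (median 1.06), all of them phenylpropanoid genes, and none fell by limma or at an unadjusted p under 0.05. The chalcone synthase gene CHS, at the entry to the flavonoids, gave 5094 and 2258 at 8 h, 3709.6 and 3696 at 32 h, 17863 and 17103 at 12 h and 27683 and 22804 at 36 h. It rose by 2.55 ± 0.25 (adjusted p = 0.000556), and the dimmest noon array was at 17103 against 5094 for the brightest end-of-night array. Os4CL2, a 4-coumarate CoA ligase gene, gave 252 and 55.3 at 8 h, 152 and 179.6 at 32 h, 1170.3 and 744 at 12 h and 2130 and 1453 at 36 h, a rise of 2.90 ± 0.37 (adjusted p = 0.00129). The chalcone isomerase gene CHI and a second ligase gene, Os4CL3, rose by 2.22 ± 0.38 (adjusted p = 0.0044) and 1.30 ± 0.19 (adjusted p = 0.00241). Among 15 tested genes of redox enzymes 6 rose (median 0.47), none fell by limma, and 1 was lower at an unadjusted p under 0.05. The ascorbate peroxidase gene OsAPx7 rose by 1.23 ± 0.26 (adjusted p = 0.00972) from 523 ± 141 to 1279 ± 376, and the plastid copper/zinc superoxide dismutase gene sodCp by 0.93 ± 0.20 (adjusted p = 0.0106) from 3507 ± 774 to 6644 ± 880.2. FtsH proteases of plastids and mitochondria, listed together, rose in 4 of 9 tested cases (median 0.59), and none fell by limma or at an unadjusted p under 0.05. Those of plastids are known to remove damaged photosystem proteins, but the counts do not separate the organelles. OsFTSH5 went from 3111 ± 467 to 6027 ± 710.4 (0.95 ± 0.13, adjusted p = 0.00206).

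In the list of carotenoid and isoprenoid synthesis 2 of 6 tested genes rose and 1 fell. ZEP, the zeaxanthin epoxidase gene of the xanthophyll cycle, whose product is also a precursor of abscisic acid, gave 3384 and 6154 at 8 h, 366 and 291 at 32 h, 16079 and 20592 at 12 h and 17809 and 22833 at 36 h. It rose by 3.90 ± 0.70 (adjusted p = 0.00523), and as for OsPRR73 the 32 h arrays were far below the 8 h arrays. The phytoene synthase gene PSY1, at the entry to carotenoid synthesis, fell by 0.72 ± 0.14 (adjusted p = 0.00632), from 15774 ± 2711 to 9646 ± 2327. Of 25 tested genes of abscisic acid and the stress kinases of its pathway 7 rose (median 0.20), ZEP among them, none fell by limma, and 3 were lower at an unadjusted p under 0.05. The kinase gene SAPK6 rose by 1.05 ± 0.18 (adjusted p = 0.00464) and OsABA8ox2, whose enzyme breaks abscisic acid down, by 0.85 ± 0.18 (adjusted p = 0.00972). OsPP2C30 rose by 1.00 ± 0.18 (adjusted p = 0.0053), from 1356 ± 180.1 to 2823 ± 887.

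Protein phosphatases 2C, a large family that includes negative regulators of abscisic acid signalling, had 8 rises and 8 falls among 49 tested genes (median 0.20), shares near the 16% and 13.1% of all probe sets. The rises were led by OsPP2C27, with 145 and 122 at 8 h, 46.7 and 81.9 at 32 h, 743 and 1134 at 12 h and 1140.3 and 1142 at 36 h. It rose by 3.08 ± 0.27 (adjusted p = 0.000389), and the dimmest noon array was replicate 1 at 12 h. OsPP2C08 rose by 2.41 ± 0.22 (adjusted p = 0.000459) from 96 ± 25 to 664 ± 235, and OsABIL1 by 1.69 ± 0.26 (adjusted p = 0.0027) from 1357 ± 683 to 4059 ± 550.1.

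Calcium sensors of the CBL family and the kinases they bind (CIPK proteins) had 6 rises and 5 falls among 27 tested genes (median 0.02), where 16% and 13.1% of all probe sets were called. OsCIPK10 gave 90.8 and 84.8 at 8 h, 50.7 and 104 at 32 h, 731 and 1389 at 12 h and 1075 and 1531 at 36 h, a rise of 3.37 ± 0.26 (adjusted p = 0.000339) without overlap. OsCIPK12 rose by 2.58 ± 0.46 (adjusted p = 0.00493). The sensor gene CBL2 gave 819.9 and 793 at 8 h, 1607 and 1755 at 32 h, 319 and 259 at 12 h and 202 and 198 at 36 h and fell by 2.14 ± 0.29 (adjusted p = 0.00173), and the kinase genes OsCIPK17 and CIPK8 fell by 1.53 ± 0.19 (adjusted p = 0.00112) and 0.96 ± 0.15 (adjusted p = 0.00323). Calcium-dependent protein kinases had 2 rises and 3 falls of 15 tested genes, again near the shares of all probe sets, and CPK12, at low signals, rose by 1.23 ± 0.25 (adjusted p = 0.00833). Of 15 mitogen-activated protein kinases 2 rose and 5 fell. MPK11 had a narrow spread in both groups, with 939.7 and 979 at 8 h, 761 and 642 at 32 h, 3329 and 3642 at 12 h and 3372 and 3699 at 36 h, and rose by 2.06 ± 0.15 (adjusted p = 0.00029).

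Auxin response genes fell more often than they rose, 11 against 3 of 30 tested (median -0.35), where 13.1% of all probe sets fell and 16% rose. IAA1, a gene of the Aux/IAA repressors of auxin signalling, gave 6909.6 and 11065 at 8 h, 9896 and 9376 at 32 h, 1096 and 1573 at 12 h and 1631 and 1241 at 36 h. It fell by 2.72 ± 0.20 (adjusted p = 0.00029), with well separated groups on both days. IAA9, a dim gene of the same family, was at 193 to 291 before and at most 46.7 at noon, and fell by 2.18 ± 0.22 (adjusted p = 0.000629). The response factor gene ARF9 fell by 1.43 ± 0.18 (adjusted p = 0.0013) from 6642 ± 1429 to 2426 ± 353. IAA13 was 1 of the 3 that rose, from 2788 ± 1087 to 8715 ± 1533 (1.68 ± 0.24, adjusted p = 0.00216). OsRR9, a response regulator of cytokinin signalling, gave 5449.6 and 3238 at 8 h, 17734 and 17703 at 32 h, 2930.1 and 1142 at 12 h and 2266 and 1499 at 36 h. It fell by 2.21 ± 0.47 (adjusted p = 0.0103), and the end-of-night signals of day 2 were several times those of day 1. In gibberellin metabolism 1 of 10 tested genes rose and 2 fell. SD1, the gibberellin oxidase gene of the semi-dwarf rice varieties, rose by 1.98 ± 0.33 (adjusted p = 0.0041) with 1295 and 1176 at 8 h, 349.8 and 291 at 32 h, 2587 and 2774 at 12 h and 2386 and 2649.8 at 36 h, and the oxidase gene OsKAO, of an earlier step, fell by 1.59 ± 0.23 (adjusted p = 0.00229) with 220.1 and 225 at 8 h, 208 and 225 at 32 h, 107 and 34.2 at 12 h and 40.8 and 41 at 36 h.

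Several metal and ion transporter genes were among the largest changes, although their lists were not uniform. Of 19 tested iron and zinc transporter genes 2 rose and 4 fell (median -0.20), where 16% and 13.1% of all probe sets were called. YSL16, whose protein carries metals bound to nicotianamine, gave 844 and 685 at 8 h, 408 and 402 at 32 h, 5650.2 and 6879 at 12 h and 4956 and 5349 at 36 h. Its rise of 3.28 ± 0.17 (adjusted p = 0.00012) had the smallest adjusted p of the genes described here. NRAMP4, a gene of the Nramp metal transporters, gave 1196 and 2446 at 8 h, 1693 and 2436 at 32 h, 223 and 108 at 12 h and 198 and 162 at 36 h, and fell by 3.25 ± 0.28 (adjusted p = 0.000389). MTP4, of the cation diffusion facilitators, gave 331 and 246 at 8 h, 343 and 449.6 at 32 h, 33.5 and 51.2 at 12 h and 40.1 and 21.3 at 36 h. It fell by 2.44 ± 0.21 (adjusted p = 0.000389), and every noon signal was under the mean of 100 that probe sets had to reach over all 8 arrays. OsNramp5, the manganese transporter gene of roots, was dim in these leaves, 221 ± 112 before and 58.4 ± 34.3 at noon, and fell by 1.46 ± 0.33 (adjusted p = 0.0128). Potassium transporters of the HAK family fell in 5 and rose in 1 of 17 tested cases (median -0.28). HAK22 fell by 1.73 ± 0.34 (adjusted p = 0.00744) from 2661 ± 874 to 800.2 ± 294, and HAK1 rose by 1.15 ± 0.25 (adjusted p = 0.0112) from 807 ± 228 to 1831 ± 485.

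Other genes with large falls did not belong to a common pathway. CEBiP, the gene of a chitin receptor of the cell surface, gave 829 and 1014 at 8 h, 7724 and 10964 at 32 h, 311 and 227 at 12 h and 88.3 and 58.7 at 36 h. It fell by 4.07 ± 0.85 (adjusted p = 0.00967), the largest fall among named genes whose groups did not overlap, and again the 32 h arrays were far from those at 8 h. OsC3H54, of the C3H zinc finger proteins, gave 3939 and 5348 at 8 h, 1189.8 and 2051 at 32 h, 724 and 547 at 12 h and 207 and 143 at 36 h, and fell by 2.88 ± 0.22 (adjusted p = 0.000316). The family as a whole had 4 rises and 10 falls among 41 tested genes (median -0.17), where 16% and 13.1% of all probe sets were called. DMC1, known as a recombinase gene of meiosis, was dim, with 70.5 and 286 at 8 h, 364 and 579 at 32 h, 38.2 and 24.5 at 12 h and 3.3 and 28.7 at 36 h, and fell by 2.46 ± 0.49 (adjusted p = 0.00748). GME-1, of an enzyme in the synthesis of ascorbate, fell by 2.26 ± 0.26 (adjusted p = 0.000928) from 13953 ± 5759.8 to 2738 ± 540.5, and the transcription factor gene OsbZIP08 fell by 2.18 ± 0.34 (adjusted p = 0.0029) from 3044 ± 1750.1 to 565 ± 95.9.

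Cyclin genes fell in 4 of 11 tested cases and rose in 1, with a median of -0.44. Over all probe sets 13.1% fell and 16% rose, which applies to the other lists of this paragraph as well. CycD5;2, at 346 to 404 before and 137 to 179 at noon, fell by 1.07 ± 0.13 (adjusted p = 0.00126). CycP3;1 fell by 1.75 ± 0.27 (adjusted p = 0.0027) and CycD4;2 fell by 1.82 ± 0.33 (adjusted p = 0.0057). Homeobox factors had 6 falls and 1 rise among 18 tested genes (median -0.42). HOX20 fell by 1.39 ± 0.20 (adjusted p = 0.00223) and HOX24 rose by 1.77 ± 0.40 (adjusted p = 0.0124), the second with overlapping groups and no call without the day block (adjusted p = 0.102). Of 12 tested cellulose synthase and related genes 2 rose and 3 fell (median 0.03), and of 4 tested expansin genes 1 rose (median -0.78), none fell by limma and 1 was lower at an unadjusted p under 0.05. The cellulose synthase-like gene CSLA5 rose from 84.2 ± 8.04 to 640.3 ± 231 (2.45 ± 0.28, adjusted p = 0.000906) and the expansin gene EXPA10, whose product loosens walls, by 1.40 ± 0.19 (adjusted p = 0.00178) from 313 ± 85.9 to 880.2 ± 249. The senescence-associated gene OSL2 fell by 0.88 ± 0.17 (adjusted p = 0.00661), and the list of leaf senescence had 1 rise and 2 falls among 4 tested genes. Tubby-like proteins fell in 5 of 11 tested cases (median -0.12). No rise was called among them by limma, and 1 was higher at an unadjusted p under 0.05.

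Several lists with few or no calls were small for a comparison with the 29.1% called over all probe sets. Among 6 WRKY factors, 3 bHLH factors and 5 enzymes of trehalose phosphate that were tested, limma called no gene in either direction, and 1, 1 and 0 genes had an unadjusted p under 0.05. Of 16 tested jasmonate TIFY genes 1 rose and 1 fell, and of 6 ribosomal protein genes 1 fell. These counts do not show that the genes were constant.

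More probe sets changed over the morning of day 2 than of day 1, and calls between the days were made among the end-of-night samples and not among the noon samples. With separate means for the 4 time points, 2933 probe sets (12.7%) were higher and 2490 (10.7%) lower at 36 h than at 32 h, against 1425 (6.15%) higher and 1026 (4.43%) lower at 12 h than at 8 h. Between the end-of-night samples, 135 probe sets (0.583%) were higher and 238 (1.03%) lower at 32 h than at 8 h. Between the noon samples, limma called 0 of 23175 probe sets, and 1538 had an unadjusted p under 0.05, fewer than the 3901 between the end-of-night samples. Of the 3704 probe sets that were higher at noon, 2247 (60.7%) had a higher mean at 8 h than at 32 h, and of the 3031 that were lower at noon, 2005 (66.1%) had a lower mean at 8 h than at 32 h, against 48.5% and 51.5% of all probe sets tested. In most called probe sets the 8 h arrays were thus closer to noon than the 32 h arrays.

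A direct test of the day difference (the interaction of clock time and day) called 60 probe sets (0.259%) with a higher signed change on day 2 and 28 (0.121%) with a lower one. In simulated data this test recovered 0% of changes of 1 or 2 on the log2 scale, so that few calls do not show that few changes differed. With the replicate number as a block, which pairs the samples, these counts were 161 and 183. OsPRR73 changed by 0.71 ± 0.47 on day 1 and by 7.05 ± 0.47 on day 2, a difference of 6.34 ± 0.66 (adjusted p = 0.023). CEBiP changed by -1.67 ± 0.27 and -6.47 ± 0.27, a difference of -4.80 ± 0.38 (adjusted p = 0.015), and ZEP by 1.99 ± 0.32 and 5.82 ± 0.32, a difference of 3.83 ± 0.45 (adjusted p = 0.0353). In the aquaporin genes the change on day 2 exceeded that of day 1 by 2.37 ± 0.29 (adjusted p = 0.0371) for OsTIP1;1 and by 3.16 ± 0.39 (adjusted p = 0.0371) for OsTIP1;2. OsTIP1;1 itself was at 31017 and 33473 at 8 h, 33179 and 31659 at 12 h and 36022 and 32992 at 36 h, and only the 32 h arrays, at 7677 and 5707, stood apart.

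BGLU16, of the beta-glucosidases, moved in opposite directions on the 2 days, with 3505 and 3666 at 8 h, 978 and 1156 at 32 h, 1566 and 1775 at 12 h and 2339.5 and 2499 at 36 h. It changed by -1.09 ± 0.18 on day 1 and 1.16 ± 0.18 on day 2, a difference of 2.25 ± 0.26 (adjusted p = 0.03), so that its mean change was 0.04 ± 0.41 (adjusted p = 0.959). The differences between days were also called for CAB2R (3.49 ± 0.46, adjusted p = 0.0434), OsPRR95 (3.28 ± 0.44, adjusted p = 0.0441), OsPRR37 (2.48 ± 0.34, adjusted p = 0.0458), HSFB2C (2.48 ± 0.33, adjusted p = 0.0441) and the beta-amylase gene at LOC_Os10g41550 (-3.43 ± 0.44, adjusted p = 0.039). Each of these 11 calls was lost without any one of the 8 arrays, with adjusted p from 0.0503 to 0.21 and counts over all probe sets of 0 to 7 higher and 0 to 2 lower. With the arrays of 1 day alone, 221 probe sets were higher and 108 lower at noon on day 1, and 3278 and 2772 on day 2. The replicates of a time point differed by a median of 0.34 and 0.29 on the log2 scale at 8 and 12 h and by 0.24 and 0.24 at 32 and 36 h, and the part of this in the counts by day was not tested.

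**Figure D5:**
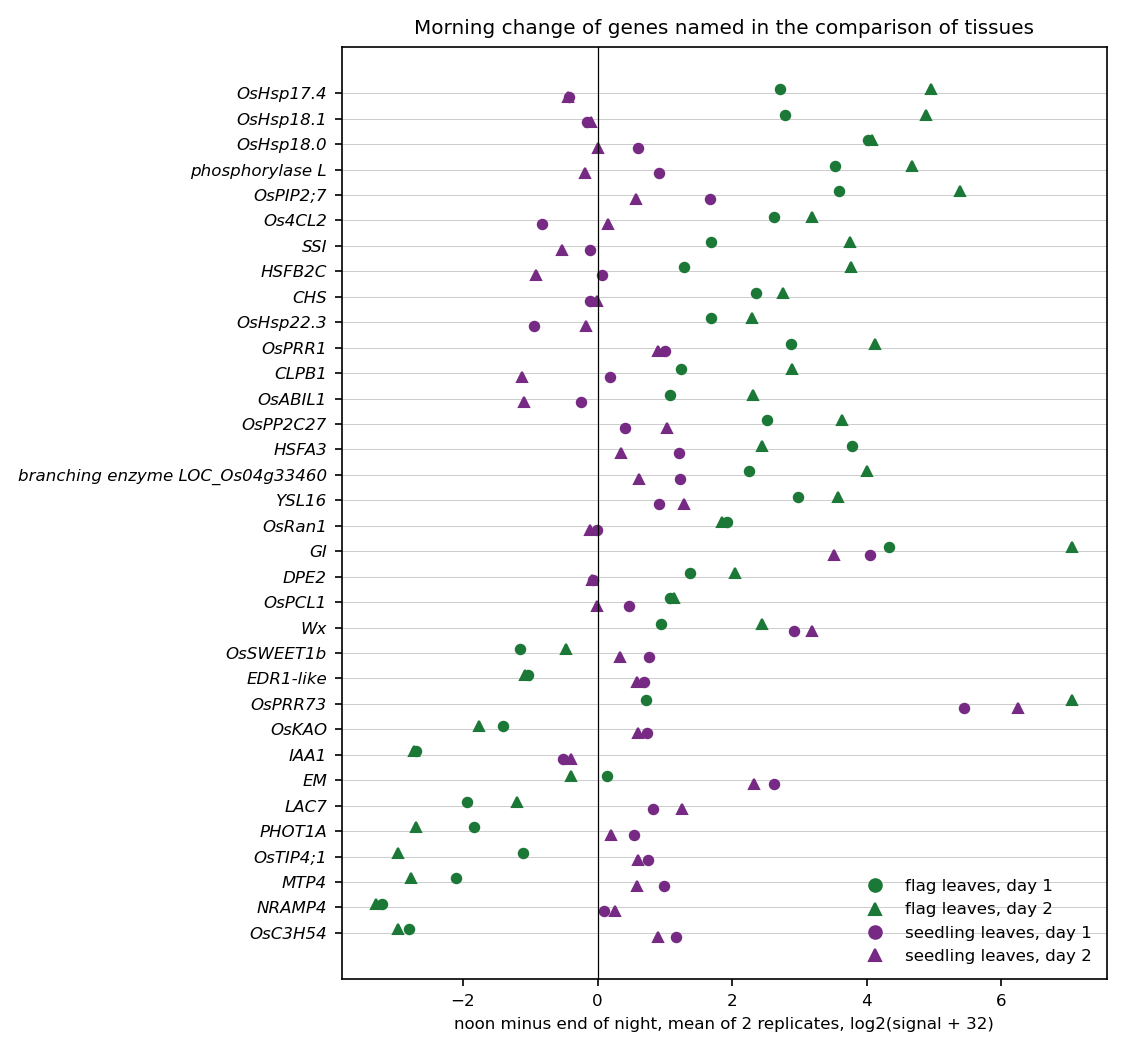
Noon minus end-of-night difference (x axis, log2(signal + 32), mean of 2 replicates) in flag leaves (green) and seedling leaves (purple) for the genes named in the comparison of tissues (y axis), ordered by the difference between tissues. Circles are day 1 and triangles day 2; OsHsp17.4, at the top, differed by 4.26 between the tissues and OsC3H54, at the bottom, by -3.92.

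Flag leaves were set against the same 4 sampling times in seedling leaves, which came from 17-day-old plants of the same variety kept at 28 °C in the light and 25 °C in the dark. The seedlings had grown on wet filter paper in a greenhouse, and the flag leaf plants in a field beforehand. Tissue, age, temperature and growing conditions thus differed together. Of 26000 probe sets tested over the 16 arrays, the morning change was higher in flag leaves for 2473 (9.51%) and lower for 2107 (8.1%). A mean signal of at least 100 in either tissue was enough for this test. Some probe sets in these counts therefore reached it only through their seedling signals.

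The morning rise of the small heat shock genes differed between the tissues in most cases. Of the 14 tested, 10 had a higher morning change in flag leaves and 1 a lower one, and their median change in seedlings was -0.15 against 2.11 in flag leaves. OsHsp18.0 was at 662 and 498 at 8 h, 557 and 458 at 32 h, 1022 and 768 at 12 h and 514 and 500.2 at 36 h in seedlings and changed there by 0.30, a difference between tissues (flag leaf change minus seedling change, here and below) of 3.74 ± 0.38 (adjusted p = 5.72e-05). OsHsp17.4, OsHsp18.1 and OsHsp22.3 differed by 4.26 ± 0.55 (adjusted p = 0.000249), 3.96 ± 0.52 (adjusted p = 0.000298) and 2.55 ± 0.29 (adjusted p = 0.000103). At the end of the night OsHsp18.0, OsHsp22.3 and OsHsp17.7 had higher mean signals in seedlings than in flag leaves, which was not tested. The factor genes HSFA3 and HSFB2C and the chaperone gene CLPB1 differed by 2.33 ± 0.38 (adjusted p = 0.0012), 2.95 ± 0.57 (adjusted p = 0.00318) and 2.53 ± 0.45 (adjusted p = 0.0021), all with the higher change in flag leaves.

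Starch genes differed between tissues in either direction. SSI changed by -0.32 in seedlings, a difference of 3.04 ± 0.47 (adjusted p = 0.00084), and phosphorylase L, the branching enzyme gene and DPE2 differed by 3.74 ± 0.58 (adjusted p = 0.000872), 2.21 ± 0.47 (adjusted p = 0.00612) and 1.78 ± 0.31 (adjusted p = 0.00196). Wx was the reverse: in seedlings it gave 87.6 and 87.2 at 8 h, 50.5 and 65 at 32 h, 1018 and 743 at 12 h and 818 and 746 at 36 h and changed by 3.05. The flag leaf change was lower by 1.35 ± 0.41 (adjusted p = 0.037). This call was lost without any one of 4 flag leaf arrays (both at 8 h, replicate 1 at 32 h and replicate 2 at 12 h, adjusted p up to 0.067). CHS, bright at all times in seedlings (13668 to 17483), changed there by -0.06, and the difference was 2.61 ± 0.28 (adjusted p = 7.71e-05). For Os4CL2 the difference was 3.24 ± 0.45 (adjusted p = 0.000436), for OsPIP2;7 3.37 ± 0.46 (adjusted p = 0.000399), and for the phosphatase genes OsPP2C27 and OsABIL1 2.36 ± 0.33 (adjusted p = 0.000422) and 2.36 ± 0.36 (adjusted p = 0.000762).

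YSL16 gave 497 and 508 at 8 h, 256 and 366 at 32 h, 898 and 1052 at 12 h and 727 and 862 at 36 h in seedlings, and its change was higher in flag leaves by 2.18 ± 0.23 (adjusted p = 6.23e-05). OsRan1, of the Ran GTPases of nuclear transport, gave 10531 and 7526 at 8 h, 10895 and 10802 at 32 h, 31448 and 36523 at 12 h and 40224 and 38161 at 36 h in flag leaves, where it rose by 1.89 ± 0.15 (adjusted p = 0.000348), and 9028 to 11091 over the 8 seedling arrays, a difference between tissues of 1.95 ± 0.17 (adjusted p = 2.16e-05). Lower changes in flag leaves were found for OsC3H54, which changed by 1.03 in seedlings (difference -3.92 ± 0.25, adjusted p = 2.7e-06), for NRAMP4 (-3.42 ± 0.31, adjusted p = 2.97e-05), MTP4 (-3.23 ± 0.29, adjusted p = 2.87e-05), IAA1 (-2.26 ± 0.22, adjusted p = 4.76e-05) and EDR1-like (-1.69 ± 0.16, adjusted p = 4.16e-05). PHOT1A, OsTIP4;1, OsKAO and OsSWEET1b fell in flag leaves and changed by 0.37, 0.68, 0.66 and 0.55 in seedlings, differences of -2.64 ± 0.28 (adjusted p = 7.7e-05), -2.71 ± 0.45 (adjusted p = 0.00133), -2.25 ± 0.28 (adjusted p = 0.000192) and -1.36 ± 0.25 (adjusted p = 0.0026). EM, of a late embryogenesis protein, and the laccase gene LAC7 were too dim in flag leaves to be tested there, at 24.6 to 79.5 and 1.2 to 151, and reached the test between tissues only through their seedling signals. In seedlings they changed by 2.47 and 1.04. Their differences of -2.61 ± 0.27 (adjusted p = 5.38e-05) and -2.61 ± 0.28 (adjusted p = 6.67e-05) are given as values, from which no lower change in flag leaves is read.

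The median change of the 7 clock genes was 3.44 in flag leaves and 3.03 in seedlings, and 2 of the 7, OsPRR1 and PCL1, were called as different between tissues. OsPRR1 changed by 0.95 in seedlings, a difference of 2.55 ± 0.36 (adjusted p = 0.00048). PCL1 changed by 0.23, a difference of 0.88 ± 0.29 (adjusted p = 0.0498). This difference was no longer called without any one of 7 flag leaf arrays (all but replicate 2 at 32 h, adjusted p up to 0.0891). Seedling arrays were not left out. GI gave 288 and 244 at 8 h, 216 and 191 at 32 h, 4919.6 and 4893 at 12 h and 3054 and 2298 at 36 h in seedlings, a change of 3.78, and the difference of 1.91 ± 0.67 (adjusted p = 0.0647) was not called. OsPRR73 was dim at the end of both nights in seedlings, with 146 and 186 at 8 h, 54.7 and 86.5 at 32 h, 9134 and 7995 at 12 h and 8257 and 7047 at 36 h, and bright at noon. Its difference between tissues, -1.96 ± 1.28 (adjusted p = 0.331), was not called and carries the wide spread of the flag leaf arrays at 8 and 32 h.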

How the data were processed

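Leaf RNA of rice was measured on 40 single-colour Affymetrix oligonucleotide arrays. The deposited values are MAS5 signals, intensities on a linear scale that the authors computed with GCOS and scaled to a common target mean on each array; each array is 1 value per probe set, and their small number limits the precision. Of 57381 entries, 187 array controls were left out. To each deposited intensity a constant of 32 was added before taking log2. The probe sets kept were those whose signal averaged 100 or more over the 8 flag leaf arrays. Some genes described passed only through their brighter group, with a mean under 100 in the other. Among those that rose were OsPRR1, PCL1, HSFA3, HSFB2B, phosphorylase L, OsPP2C08, OsPP2C27, OsCIPK10 and CSLA5. Among those that fell were IAA9, MTP4, OsNramp5, OsKAO and DMC1. The sizes of their changes depend on dim signals and on the constant. For the test between tissues an average of 100 or more in either tissue was enough. Differences were tested with limma 3.58.1 in R 4.3.3 (lmFit and eBayes, Benjamini-Hochberg adjustment over all probe sets tested, threshold 0.05). The main fit held the 8 flag leaf arrays with day as a block; the test between days used the same arrays with a mean per time point, and the test between tissues 16 arrays. Tables and figures were made with Python 3.11.15, pandas 2.3.3 and matplotlib 3.10.9. The scripts were tested on simulated data with 100 probe sets changed by 1 and 100 by 2 on the log2 scale. The main test recovered 43% and 80% of them, the test between tissues 37% and 85%, and the test between days 0% and 0%. The simulated data changed a far smaller share of probe sets than was called here, and held no day shift and no pairing of replicates. Their rates are therefore not the share of true changes found in the real data.

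Groups and replicate numbers came from the sample titles. The free description of every sample repeats 1 seedling sample and was not used. Same-numbered samples of a tissue deviated together (6 correlations of deviations from the group means, 0.245 to 0.407), so that replicate numbers were taken to pair the samples. Fits with the replicate number as a block are given where they change a count by over 1.5 times. The values of single genes come from fits without this block. With it, 109 of the genes described kept their call or lack of call in the main comparison, and none changed. With day 1 alone, in contrast, 82 of the genes described lost their call. Signals of different probe sets were not compared as levels of their genes beyond naming dim and bright genes.

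The platform annotation has 1 gene for 22436 of the probe sets, more than 1 for 95 and no gene for 34663, and its names can be old. For a gene with several probe sets the one with the highest mean signal was kept; 322 named genes had more than 1 tested probe set, and 6 of these were called in both directions. Probe sets of PORB, HEMB, RCABP69, OsGLO4, OsHsp18.8, PSY1, Wx, OsSWEET14, HAK22, HAK1, HOX20, CPK12 and OsABA8ox2 share sequence with other transcripts, and their values are uncertain. Genes were named by a rule: the 12 largest rises and falls among called, named genes whose groups do not overlap, the clock genes, in each list the members with the smallest adjusted p, 4 at most, 4 loci that the study measured by RT-PCR, and up to 6 and 10 genes of the tests between days and tissues. Other genes named, among them the starch loci given by locus number, OsHsp17.7, OsHsp24.1, OsHsp18.8, HSFB2B and OsCIPK12, were chosen after their values were seen. The comparison, the gene lists and the rule were chosen with earlier results of these data known, and some gene lists and the contrasts between single time points after seeing the values. A list of thiamine and other cofactor genes matched 0 genes.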

Additional observations from a re-analysis of the deposited data

Results flagged for a closer look

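In groups of 4 arrays, 1 array lay far from the other 3 in 13 of the 222 groups examined for the genes described, and chance flags about 1 in 20 groups. On end-of-night arrays these were OsPCL1 at 32 h replicate 2 (127.1), OsHsp22.3 at 8 h replicate 1 (154.5), OsSWEET1a at 32 h replicate 2 (2460.4), IAA13 at 32 h replicate 1 (4410.2), EXPA10 at 8 h replicate 2 (185.8) and OsRan1 at 8 h replicate 2 (7526.3). On noon arrays they were PHYB at 12 h replicate 1 (2250.8), OsSWEET14 at 36 h replicate 2 (219.1), OsPP2C27 at 12 h replicate 1 (743.3), OsPP2C08 at 12 h replicate 2 (1012), OsKAO at 12 h replicate 1 (107.1), EM at 36 h replicate 1 (24.6) and TUBA1 at 12 h replicate 1 (3133.1).

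Among the genes given above for the test between days, the morning change of 11 differed in limma's test, as day 2 minus day 1 on the log2 scale. Other genes described were not counted here. It was 6.34 for OsPRR73, 3.83 for ZEP, 3.49 for CAB2R, 3.28 for OsPRR95, 3.16 for OsTIP1;2, 2.48 for HSFB2C, 2.48 for OsPRR37, 2.37 for OsTIP1;1 and 2.25 for BGLU16. It was -4.80 for CEBiP and -3.43 for the beta-amylase gene at LOC_Os10g41550.

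Among the genes whose difference between tissues is given above, limma called 32, as flag minus seedling leaves. Other genes described were not counted here, and some of them may differ as well. The heat shock genes OsHsp17.4, OsHsp18.1, OsHsp18.0 and OsHsp22.3 gave 4.26, 3.96, 3.74 and 2.55, and HSFB2C, CLPB1 and HSFA3 gave 2.95, 2.53 and 2.33. For phosphorylase L, SSI, the branching enzyme gene at LOC_Os04g33460 and DPE2 the values were 3.74, 3.04, 2.21 and 1.78, and for Wx the value was -1.35. OsPIP2;7, Os4CL2 and CHS gave 3.37, 3.24 and 2.61, OsPRR1 gave 2.55 and OsPCL1 0.88 (not called without any one of 7 flag leaf arrays). OsPP2C27 and OsABIL1 gave 2.36 and 2.36, and YSL16 and OsRan1 gave 2.18 and 1.95. Lower changes in flag leaves were those of OsC3H54 (-3.92), NRAMP4 (-3.42), MTP4 (-3.23), OsTIP4;1 (-2.71), PHOT1A (-2.64), IAA1 (-2.26), OsKAO (-2.25), EDR1-like (-1.69) and OsSWEET1b (-1.36). LAC7 (-2.61) and EM (-2.61) were too dim in flag leaves to be tested there, so that their values rest on the seedling arrays.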

How the results depend on the processing

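Noon against end of night gave 3704 higher and 3031 lower probe sets. Without the filter on low signal 2607 and 2013 were called, of which 4098 were shared with the 6735 calls of both directions. With day 1 alone 221 and 108 were called. Among the genes described 82 then lost their call, 23 kept their call or lack of call and 2 changed sign. With day 2 alone 7 lost their call, 5 gained one and 97 were unchanged. Without the day block 3 of the genes described lost their call. Leaving out 1 array in turn gave 2501 to 3612 higher and 1977 to 2886 lower, the smallest counts of lower probe sets without replicate 2 at 32 h (1977) or at 36 h (1978). With the replicate number as a block next to the day block 4280 and 3642 were called, and quantile normalization gave 3418 and 3281. The other constants, filter, scaling, variance prior and sample choices stayed within 1.5 times of the main counts.

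The difference between days was the least stable. It gave 60 higher and 28 lower, against 30 and 8 with a constant of 1, 76 and 48 with a constant of 64, 0 and 1 without the filter, 58 and 21 with quantile normalization, 161 and 183 with the replicate number as a block, and 0 to 7 and 0 to 2 without 1 array. The cause was not tested. The comparison of tissues gave 2473 and 2107, with a replicate block 3343 and 2790, without 1 flag leaf array 2024 to 2829 and 1712 to 2298, and every other setting was within 1.5 times. Seedling arrays were not left out in turn.

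With day 1 alone, RCABP69 changed sign to -0.105 and BGLU16 to -1.09. Without 1 array BGLU16 ranged from -0.236 to 0.296, and it was below 0 without any one of the 32 and 36 h arrays. Neither gene was called in the main comparison. The median over all probe sets was 0.02, -0.02 with quantile normalization and -0.00 with a common median. Signals that lie near or under the constant of 32 give small and uncertain differences.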
